A study of Mus musculus with 12 samples.

Results

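The genes described here are 10 protein-coding neighbours of Met on mouse chromosome 6, taken by symbol from a table of 47593 genes and ordered by position between about 13 and 19 Mb. From left to right they are Vwde, Tmem168, Mdfic, Tfec and Tes before Met, and Capza2, St7, Cftr, Cttnbp2 and Lsm8 after it. All 10 were found, and all 10 were among the 16802 genes with a mean TPM of at least 1, the cut used here for an expressed gene. TPM (transcripts scaled to length and to a fixed library total) is the unit of all levels given. The genes were chosen from their levels in these same tumors, so those levels are given as a description and without a test. Met and the caveolin genes Cav1 and Cav2 serve only as landmarks.

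Poly(A) RNA was sequenced from 12 mammary tumors of 9 female mice, all of a single condition, with no treatment and with MADM RG;GR alleles on a mixed background. In these MADM-mutant mice, MMTV-Cre, which is active in luminal and basal cells of the mammary gland, gives rise to scattered, mainly luminal GFP-marked cells that lack both Brca1 and p53 among heterozygous cells. Tumors 3 and 4 came from one mouse, tumors 10, 11 and 12 from another, and each of the other 7 mice gave 1 tumor, so the mouse was the replicate (n = 9). No normal gland entered the comparison and the labels used here give no ages.

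Genes that lie side by side on a chromosome can be gained or lost together when a tumor changes the copy number of a segment, and neighbours of a gained oncogene are then often overexpressed along with it. Neighbouring genes can also share regulatory elements, and transcription from one gene can run into the next. Met encodes the receptor for hepatocyte growth factor, and the genes around it have unrelated functions, from actin capping to chloride transport. RNA levels alone do not show DNA copy number, which was not analysed here.

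The order of the genes along the chromosome is as follows, in the GRCm38 build with the GENCODE M21 annotation and with distances taken between gene starts. Vwde (chr6:13156299-13224965, minus strand), whose product carries von Willebrand factor D and EGF domains, lay 4.31 Mb before Met. Tmem168 (chr6:13580687-13608100, minus strand), a multi-pass membrane protein gene, lay 3.88 Mb before it. Mdfic (chr6:15720661-15802169, plus strand), a relative of the MyoD family inhibitor, lay 1.74 Mb before it. Tfec (chr6:16833373-16898441, minus strand), a transcription factor of the MiT family that is found mainly in macrophages and osteoclasts, lay 0.63 Mb before it. Tes (chr6:17065149-17105828, plus strand), which encodes the focal adhesion protein testin, was the nearest of these genes on the left at 0.40 Mb.

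On the right, Capza2 (chr6:17636234-17666972, plus strand), an alpha subunit of the actin capping protein, began 0.17 Mb after the start of Met. St7 (chr6:17692933-17943025, plus strand), first described as a candidate tumor suppressor, began 0.23 Mb after it. Cftr (chr6:18170687-18322768, plus strand), the cAMP-regulated chloride channel, began 0.71 Mb after it. Cttnbp2 (chr6:18366478-18514843, minus strand), which encodes a cortactin-binding protein best known from neurons, began 0.90 Mb after it. Lsm8 (chr6:18848579-18855751, plus strand), a subunit of the nuclear ring that binds U6 small nuclear RNA, was the farthest at 1.38 Mb.

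Tes and Capza2 were among the most abundant transcripts in 10 of the 12 tumors, the exceptions being tumors 2 and 9, and varied together. Lsm8 stood out in 3 tumors and Vwde in 1. Their promoters are shown as the 250 bases before the transcription start in RefSeq (GRCm38.p6), written 5′ to 3′ on the strand of the gene. Capitals mark CCAAT or GGGCGG on either strand (ATTGG and CCGCCC are the reverse complements), and TATAAA and TGACTCA were also searched. The windows are chr6:17064899-17065148 (plus strand) for Tes, chr6:17636760-17637009 (plus strand) for Capza2, chr6:18848385-18848634 (plus strand) for Lsm8 and chr6:13224966-13225215 (minus strand) for Vwde.
Tes: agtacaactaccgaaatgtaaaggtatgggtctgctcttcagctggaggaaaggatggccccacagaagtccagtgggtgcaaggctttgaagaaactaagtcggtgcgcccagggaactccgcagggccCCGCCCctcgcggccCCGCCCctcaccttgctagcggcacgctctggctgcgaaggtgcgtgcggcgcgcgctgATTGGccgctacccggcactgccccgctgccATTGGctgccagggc
Capza2: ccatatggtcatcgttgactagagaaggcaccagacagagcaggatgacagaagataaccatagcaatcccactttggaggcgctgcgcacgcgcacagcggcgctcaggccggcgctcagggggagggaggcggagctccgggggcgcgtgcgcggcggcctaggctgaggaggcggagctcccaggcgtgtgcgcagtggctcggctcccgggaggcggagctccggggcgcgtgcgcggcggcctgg
Lsm8: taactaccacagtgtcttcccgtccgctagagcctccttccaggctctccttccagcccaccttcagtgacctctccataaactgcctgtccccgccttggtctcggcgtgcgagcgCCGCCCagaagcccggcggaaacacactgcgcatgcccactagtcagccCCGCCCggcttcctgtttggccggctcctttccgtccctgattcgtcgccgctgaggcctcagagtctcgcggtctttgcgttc
Vwde: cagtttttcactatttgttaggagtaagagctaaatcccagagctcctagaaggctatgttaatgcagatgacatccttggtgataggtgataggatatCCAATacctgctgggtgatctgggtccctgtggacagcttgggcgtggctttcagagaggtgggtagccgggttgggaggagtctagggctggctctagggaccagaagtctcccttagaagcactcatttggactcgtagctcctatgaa

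Among 27025 RefSeq promoter windows of this length, CCAAT was found in 34.5%, GGGCGG in 32.9%, TATAAA in 12.97% and TGACTCA in 4.43%. The Tes window held both CCAAT and GGGCGG, the Lsm8 window held GGGCGG, the Vwde window held CCAAT, and the Capza2 window held none of the 4 motifs. GC content was 64.8% for Tes, 70.4% for Capza2 and 63.6% for Lsm8, with 19, 28 and 21 CpG dinucleotides, against medians of 52% and 6 over all windows. The Vwde promoter, at 50.0% GC and 3 CpG, was thus unlike the other 3. These matches describe the letters of the windows only. The RefSeq starts used for Capza2 and Lsm8 lay downstream of the GENCODE gene starts, so that these windows lie partly or wholly within the GENCODE genes.

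Very high expression was defined within each tumor as the top 1% of expressed genes, that is 168 genes, which put the lower limit between 716 and 813 TPM. Of 120 values (10 genes in 12 tumors), 24 were very high, where 1% of all values of expressed genes are so by construction. They came from 4 of the 10 genes, which were Tes and Capza2 in 10 tumors each, Lsm8 in 3 and Mdfic in 1. The Mdfic value of tumor 6 was the last gene inside the limit of that tumor, at 764 TPM, and the nearest value outside was St7 in tumor 8, at 567 TPM against a limit of 752 TPM. Tumors 2 and 9 held no very high value.

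A second measure compared each gene with itself across mice. A value was called raised when its log2 ratio of (TPM + 1) to the second-lowest of the 9 mouse means was at least 2, a 4-fold change. Of the 120 values 46 were raised, against 7.7% of all values of expressed genes. Raised values were found for 9 of the 10 genes, the exception being Tmem168. For Tes the second-lowest mouse was that of tumor 9 and for Capza2 and St7 that of tumor 2, so these 2 tumors set the reference for the genes nearest to Met. Leaving out the mouse of tumor 2 gave 20 raised values, and leaving out that of tumor 9 gave 19.

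Tumor by tumor, 6 of the 10 genes were raised in tumors 5, 7 and 11, where 7.23%, 6.45% and 6.86% of expressed genes were raised. In tumor 10 the number was 5 (7.11% of expressed genes), and in tumors 4, 6, 8 and 12 it was 4 (8.71%, 7.12%, 8.32% and 8.31%). In tumors 1 and 3 it was 3 (7.37% and 8.4%). Tumor 9 had 1 raised gene of the 10 (10.2%) and tumor 2 had 0 (6.28%). The 2 tumors with the fewest raised neighbours of Met thus had the lowest and the highest share of raised genes in the genome.

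**Figure D1:**
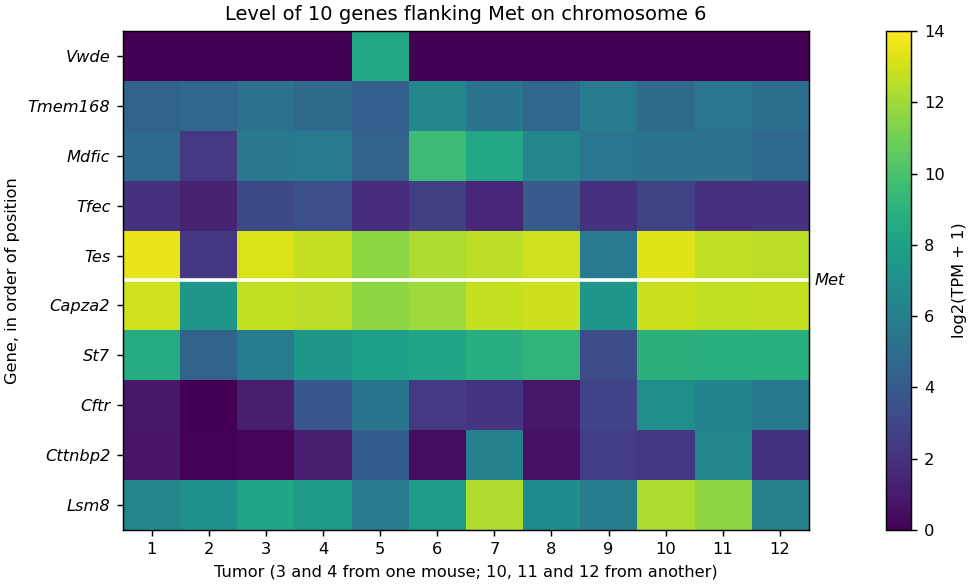
Colour gives log2(TPM + 1), from 0 (dark) to 14 (yellow), of the 10 genes from top to bottom in order of position (vertical axis) in each of the 12 tumors (horizontal axis), and the white line marks the place of Met. The rows of Tes and Capza2 are bright except in tumors 2 and 9, Lsm8 is bright in tumors 7, 10 and 11 (3302 to 5165 TPM), and Vwde is above 0 in tumor 5 only.

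Some facts of the libraries bear on these values. Tumor 2 stood apart in its cell markers, with a summed TPM of 1.61 over 7 epithelial genes, all of them below 1 TPM and 2 of them at 0, no signal for the basal keratins and 4723 TPM over 5 B lineage genes. The label of a mammary tumor thus had no support from the epithelial markers in tumor 2, which is the reference mouse for Capza2 and St7, so the folds of these genes are against a sample with almost no epithelial RNA. Tumor 9 had nearly the same Capza2 level and a lower St7 level. Tumor 8 had 160 TPM of the epithelial genes and the other 10 tumors between 3375 and 8305 TPM. Tumor 9, the other tumor with low Tes and Capza2, had 3557 TPM of the epithelial genes, 325 TPM of the B lineage genes and 56.4 TPM of 3 T lineage genes. The part that cell content had in the results below was not tested. In bulk RNA, fewer cells of a type cannot be told apart from less RNA per cell.

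Tes ranged from 3.77 TPM in tumor 2 to 11737 TPM in tumor 1, with a median of 6321 TPM over the 12 tumors. Tumor 9 had 51.7 TPM, and the lowest of the remaining 10 tumors, tumor 5, had 3114 TPM. These 10 tumors, from 7 mice, thus lay far above the other 2 with no value in between. Tes was the most abundant of all expressed genes in tumors 1 and 3, and its rank was 22 or better in all 10. Against the reference mouse its level was 59.1-fold higher in tumor 5 and 223-fold higher in tumor 1, on the scale of TPM + 1. On the log2(TPM + 1) scale the mean was 10.76 ± 3.97 (SD, n = 9 mice), an SD larger than that of 99.97% of expressed genes. Without the mouse of tumor 2 the mean was 11.82.

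Capza2 had 168 TPM in tumor 2, 165 TPM in tumor 9 and a range from 3265 TPM (tumor 5) to 8044 TPM (tumor 1) over the other 10, with a median of 6755 TPM over all 12. The same 10 tumors formed the upper set, in which Capza2 never ranked below 21. The level was 19.4-fold to 47.7-fold that of the reference mouse, and the mean log2(TPM + 1) was 11.38 ± 2.31 (SD, n = 9 mice). In tumors 2 and 9 Capza2 was still well expressed, at levels within the range of its partner genes, whereas Tes had 3.77 TPM in tumor 2.

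St7 was raised in 9 tumors but never very high. It had 8.18 TPM in tumor 9, 20.7 TPM in tumor 2 and 57.3 TPM in tumor 3, then 172 TPM in tumor 4, and the other 8 tumors ranged from 238 to 567 TPM. Tumor 3, which had the third-highest Tes level, thus fell on the low side for St7. The small RNA gene Gm27960, inside St7 on the same strand, had 145 TPM in tumor 3. How reads were divided between these genes is not stated, so the low St7 value may depend on it. The raised values were 7.96-fold (tumor 4) to 26.1-fold (tumor 8) above the reference mouse, and the mean log2(TPM + 1) was 7.33 ± 2.14 (SD, n = 9 mice).

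For Tes, Capza2 and St7 the mice of tumors 2 and 9 were the lowest 2 of the 9, a pattern seen in 3 of the 10 genes and in 14.1% of expressed genes. Among the 9 mice the ranks of Tes and Capza2 gave a Spearman rho of 0.88, those of Capza2 and St7 0.85 and those of Tes and St7 0.58. These correlations are descriptions over mice that share the same 2 low members. Met itself, between Tes and Capza2, had 1.13 TPM in tumor 2 and 78.3 TPM in tumor 9, and its other 10 values ranged from 1251 to 3119 TPM.

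Lsm8, 1.38 Mb from Met, was very high in tumors 7, 10 and 11, at 5165, 4876 and 3302 TPM. The other 9 tumors lay between 51.1 TPM (tumor 5) and 306 TPM (tumor 3), so the 3 high tumors stood clear of the rest. The level in tumor 7 was 84.0-fold that of the reference mouse, and in tumor 3 it was 4.99-fold. The mean log2(TPM + 1) was 7.77 ± 2.16 (SD, n = 9 mice). Tumors 10 and 11 shared this level with tumor 7 of another mouse but not with tumor 12 of their own.

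Cftr was listed at 0 in tumor 2, lay between 0.84 and 5.99 TPM in tumors 1, 3, 6, 7, 8 and 9, and had 12.9 TPM in tumor 4. It was higher in tumor 5, at 43.1 TPM, and in the 3 tumors of one mouse, at 123, 78.5 and 50.2 TPM in tumors 10, 11 and 12. Cftr was raised in these 4 tumors and in tumor 4, and the highest ratio was 67.3-fold in tumor 10. These levels were well below those of Tes and Capza2, and the best rank of Cftr in any tumor was 1374 of 16802.

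Cttnbp2 had 85.3 TPM in tumor 11, 72.0 TPM in tumor 7 and 16.4 TPM in tumor 5, and the other 9 tumors lay between 0.051 TPM (tumor 2) and 5.04 TPM (tumor 9). It was raised in tumors 5, 7, 9 and 11. The ratio was 60.7-fold in tumor 11 and 4.25-fold in tumor 9, where it was the only one of the 10 genes that was raised. The tumors high in Cttnbp2 were only in part those high in the adjacent Cftr and Lsm8: tumor 7 had 3.36 TPM of Cftr, and tumor 10, high in Cftr and Lsm8, had 3.75 TPM of Cttnbp2.

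To the left of Met, Mdfic had 764 TPM in tumor 6 and 321 TPM in tumor 7, and the other 10 tumors lay between 4.04 TPM (tumor 2) and 82.3 TPM (tumor 8). Only the first 2 were raised, 34.4-fold and 14.5-fold. With the lowest mouse, that of tumor 2, as the reference in place of the second-lowest, 11 tumors were raised. Between Mdfic and Tes lies Tfec, and it was not raised in either of these tumors, with 5.26 and 2.04 TPM.

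Tfec had the lowest mean TPM of the 10 genes, although its median was above those of Vwde and Cttnbp2. It ranged from 1.57 TPM (tumor 2) to 15.2 TPM (tumor 8), with a median of 2.97 TPM, and only tumor 8 was raised, at 5.33-fold. In tumor 8 the summed TPM of 3 macrophage genes was also the highest of the 12 tumors, at 547 TPM against 67.6 TPM in tumor 2, the lowest for both. Tumor 8 was also the highest in the summed TPM of 3 mesenchymal genes (3094 TPM) and of 3 endothelial genes (131 TPM), and it had the next-highest sum of 3 fibroblast genes, at 777 TPM against 1330 TPM in tumor 4. The part of these cell types in the level of Tfec was not tested.

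Vwde had 335 TPM in tumor 5 and was listed at 0 in the 11 other tumors. On the log2(TPM + 1) scale tumor 5 was 8.39 above the next tumor. A gap of at least 4 on this scale was found for 1 of the 10 genes and for 1.09% of expressed genes. No fold is given for Vwde, since the other tumors were at 0.

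Tmem168, the next gene to the right of Vwde, was the most even of the 10. It ranged from 18.5 TPM (tumor 5) to 83.7 TPM (tumor 6), with a mean of 36.8 ± 20.5 TPM (SD, n = 9 mice), and no tumor was raised. Tumor 5, with the highest Vwde level, had the lowest Tmem168 level.

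Ordered by mean TPM over the 9 mice, a unit that corrects for transcript length, the genes ran from Tes (5577 ± 3947, SD) and Capza2 (4849 ± 3100) through Lsm8 (979 ± 1795), St7 (286 ± 203), Mdfic (150 ± 250), Vwde (37.2 ± 112) and Tmem168 (36.8 ± 20.5) to Cftr (16.6 ± 28.6), Cttnbp2 (14.1 ± 24.1) and Tfec (5.05 ± 4.40). Capza2 and Lsm8 were the only neighbours in this order whose means differed by more than the larger of their SDs, and Capza2 was the higher in 9 of 9 mice. For Lsm8, Mdfic, Vwde, Cftr and Cttnbp2 the SD exceeded the mean, and their means depended strongly on 1 mouse. Only Vwde was above 0 in 1 mouse alone, and each of the others was raised in more than 1 mouse. Leaving out 1 mouse, a check added after seeing the data, took the mean from 979 to 455 TPM for Lsm8 (tumor 7), from 150 to 73.1 TPM for Mdfic (tumor 6), from 37.2 to 0 TPM for Vwde (tumor 5), from 16.6 to 8.16 TPM for Cftr (tumors 10 to 12) and from 14.1 to 6.84 TPM for Cttnbp2 (tumor 7). Vwde was above Tmem168 in 1 of 9 mice. The SD of log2(TPM + 1) had a median of 0.57 over all expressed genes, and all 10 genes were above it, from 0.67 for Tmem168 upward.

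To locate the edges of high expression, a run of raised genes was followed from Met outward over the expressed genes of chromosome 6, noncoding genes included, until 3 consecutive genes were not raised. A run required that Met itself was raised. For Met the reference mouse was that of tumor 9, and tumor 2 lay below it. Tumors 2 and 9 could therefore have no run by construction. A run was found in the other 10 tumors. It began at Gm15473, a noncoding RNA gene just before Tes and 0.40 Mb from Met, in tumors 1, 5, 7, 10, 11 and 12. It began farther left in the other 4, at Tfec in tumor 8, at the noncoding Gm43998 in tumors 3 and 4, and at Gpr85, which encodes an orphan receptor, in tumor 6. With this stopping rule, the left end just before Tes was thus shared by 6 tumors of 4 mice. The 3 genes that stopped the run there were Tfec, Gm43998 and Gm43924. In these 6 tumors Tfec had at most 6.37 TPM, Gm43998 was listed at 0 and Gm43924 had at most 3.08 TPM. Genes this low say little about where high expression ends. The next expressed gene, Mdfic, was raised in tumor 7, at 321 TPM.

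On the right, the run ended with St7 in tumors 5, 6, 7, 10 and 11, the raised genes Gm27960 and Gm43844 lying inside it. In tumor 3, where St7 was not raised, it ended at Gm27960, a small RNA gene near the start of St7. It ended at Wnt2, which encodes a secreted signalling protein, in tumors 1 and 8, and at Cftr in tumors 4 and 12. Tumor 12 reached Cftr under this rule because Gm43844 was raised there, at 6.00 TPM. Measured to the farthest end of a raised gene, the runs spanned 0.884 Mb in tumors 5, 7, 10 and 11, 0.972 Mb in tumor 1, 1.14 Mb in tumor 3, 1.20 Mb in tumor 8, 1.26 Mb in tumor 12, 1.77 Mb in tumor 4 and 4.11 Mb in tumor 6. All 10 included Tes and Capza2. The outer ends depend on the stopping rule: when a run ended only at 10 consecutive genes that were not raised, a rule chosen after seeing the data, tumors 1, 6 and 8 had 0.972, 4.87 and 1.20 Mb and the other 7 had between 6.78 and 10.005 Mb. The left end was then still at Gm15473 in tumors 1, 10 and 11 only, and the right end was at Cadps2 in tumors 3, 4, 7, 10 and 11. Cadps2 was also raised in tumor 9, at 16.2 TPM, where no run was found, while Ptprz1, near it and named after its values were seen, was raised in the same 10 tumors as Met. Beyond the ends found with 3 genes, separated by genes that were not raised, more of the 10 genes were raised. On the left these were Vwde in tumor 5 and Mdfic in tumor 7. On the right they were Cftr in tumors 5, 10 and 11, Cttnbp2 in tumors 5, 7 and 11, and Lsm8 in tumors 3, 7, 10 and 11. Without the mouse of tumor 2, or without that of tumor 9, the second-lowest mouse is a high one for these genes and 0 runs were found.

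The limits of very high expression differed from those of the runs. Between 13 and 19 Mb, its first gene was Tes in 9 of the 10 tumors and its last was Capza2 in 7. The exceptions were tumor 6 on the left, where 2610001J05Rik had 1242 TPM, and tumors 7, 10 and 11 on the right, where Lsm8 was the last. No gene between Capza2 and Lsm8 was very high. In those 3 tumors the run had already ended before Lsm8, but at genes with little RNA. In tumors 10 and 11 these were Gm43844, Wnt2 and Gm15596, at 2.43 TPM or less. In tumor 7 they were Wnt2, Gm15596 and Cftr, at 3.36 TPM or less. The next gene was raised each time, Cftr in tumors 10 and 11 and Cttnbp2 in tumor 7. Whether Lsm8 was separate from the block around Met cannot be read from these run ends. The whole window made up between 0.0461% (tumor 2) and 3.18% (tumor 8) of all TPM, and the 10 genes between 0.0354% (tumor 2) and 2.32% (tumor 10).

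**Figure D2:**
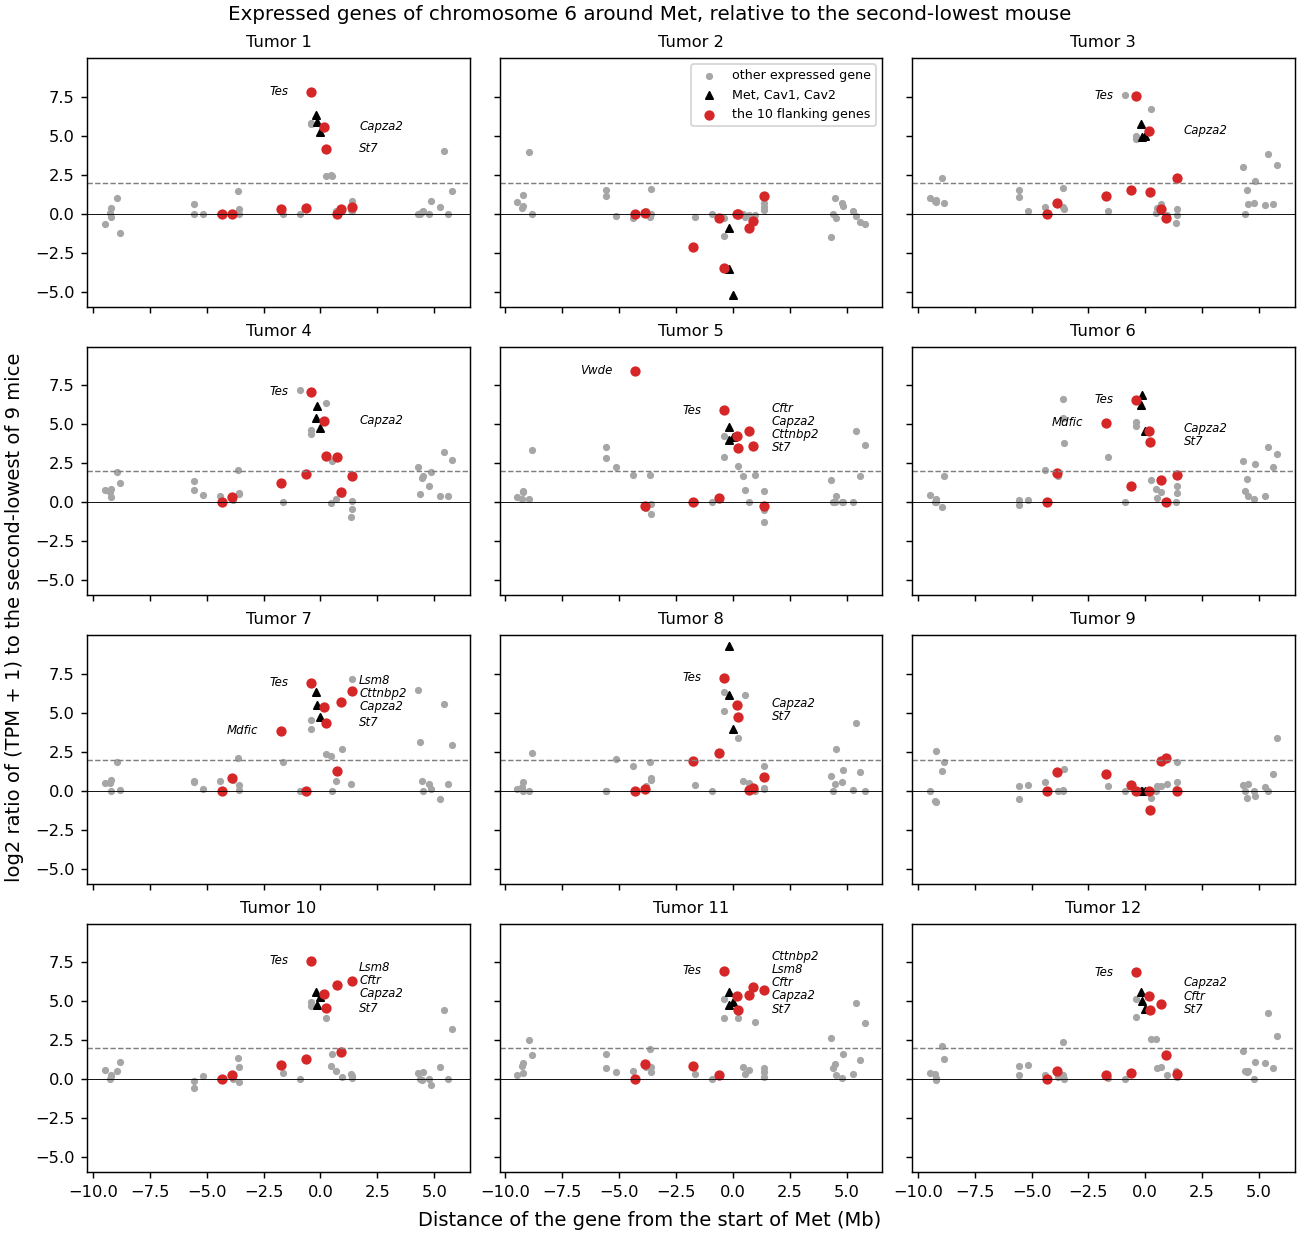
Each panel shows 1 tumor, with the distance of each expressed gene of chromosome 6 from the start of Met in Mb (horizontal axis) and its log2 ratio of (TPM + 1) to the second-lowest of 9 mice (vertical axis), the dashed line marking a ratio of 2 on this scale. Red points are the 10 genes, named where the ratio is at least 3 on this scale, black triangles are Met, Cav1 and Cav2, and grey points are other expressed genes. Tes and Capza2 lie high in 10 panels and not in tumors 2 and 9, while Vwde is high in tumor 5 only and Lsm8 highest in tumors 7, 10 and 11.

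The tumors with a wider or broken pattern differed in which genes took part. In tumor 5, Vwde and several genes farther left were raised, apart from the block at Met. Tmem106b, a lysosomal membrane protein gene next to Vwde, had 113 TPM in tumor 5 and was raised only in tumor 6, at 142 TPM. Phf14, a chromatin protein gene, had 221 TPM in tumor 5, while the others ranged from 20.5 to 67.2 TPM. Thsd7a, between Phf14 and Tmem106b, was raised in tumors 5 and 8, at 4.24 and 3.41 TPM. Ndufa4, a mitochondrial respiratory chain gene beside Phf14 and named after its values were seen, had 3502 TPM in tumor 5 and at most 932 TPM in the others. Tmem168 and Mdfic, between this stretch and Met, were at 18.5 and 21.2 TPM in tumor 5 and not raised.

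In tumor 6 the raised run reached Gpr85, 3.63 Mb before Met. Gpr85 had 109 TPM there and at most 4.98 TPM in the others, and 2610001J05Rik, named after its values were seen, had 1242 TPM, while the others ranged from 15.98 to 45.6 TPM. Mdfic, at 764 TPM, lay within this run. Tfec, also within it, had 5.26 TPM and was not raised, so the run was not without gaps.

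In tumor 7 the noncoding genes Gm26809 and Gm20186, just before Lsm8 and named after their values were seen, had 695 and 133 TPM. In tumors 10 and 11, which had Lsm8 levels near that of tumor 7, Gm26809 had 4.60 and 4.36 TPM. The 3 tumors with very high Lsm8 were therefore not alike in the genes next to it. Past Lsm8 the first expressed gene was Tspan12, a tetraspanin gene several Mb away, at 573 TPM in tumor 7 and at most 51.2 TPM in the others. It was raised in tumors 3, 4, 6, 7 and 11. Gm42582, the next, was raised in tumor 7 only, at 7.81 TPM, and Ing3, a chromatin protein gene that followed, was raised in no tumor.

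Gm43998, at the left end of the runs of tumors 3 and 4, had 196 and 148 TPM in these tumors of one mouse and was listed at 0 in the other 10. Gm27960 had 145 and 115 TPM in tumors 3 and 4 and at most 20.1 TPM elsewhere. It lies inside St7 on the same strand, and St7 itself was at 57.3 and 172 TPM in these tumors, so reads could have been divided between them in a way that the sources used here do not state. The antisense gene Gm4876 overlaps Tes and ranged from 0 to 143 TPM. The library kit kept the strand but the counting setting is not stated, and reads of Gm4876 and Tes may not have been told apart.

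Tumors of the same mouse gave a closer comparison. The tumors 10, 11 and 12 differed little in Capza2 (7428, 6731 and 6860 TPM) and St7 (505, 467 and 473 TPM), with ranges of 0.14 and 0.11 on the log2(TPM + 1) scale against a median of 0.49 over expressed genes. Tes (10228, 6386 and 6074 TPM) had a range of 0.75, above that median. Lsm8 had 76.3 TPM in tumor 12, which was lower than in tumors 10 and 11 by at least 5.42 on the log2(TPM + 1) scale. A level higher by 4 or more in both tumors 10 and 11 than in tumor 12 was found for 1 of the 10 genes and for 3 of 16802 expressed genes (0.0179%). Cttnbp2 separated them differently, with 85.3 TPM in tumor 11 against 3.75 TPM in tumor 10 and 3.16 TPM in tumor 12. Thus 3 tumors of one mouse had the same level of Capza2 to within 0.14 on the log2 scale and different genes raised at the right edge.

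Tumors 3 and 4, also of one mouse, differed by at least 1 on the log2(TPM + 1) scale in 2 of the 10 genes, against 3.9% of expressed genes. St7 was lower in tumor 3 than in tumor 4, by a difference of -1.57 on this scale, and Cftr was lower by a difference of -2.61, at 1.28 against 12.9 TPM. The St7 values may be affected by the division of reads with Gm27960 described above. Tes and Capza2 differed by 0.47 and 0.14. With 1 library for each tumor, none of these differences has a replicate.

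**Figure D3:**
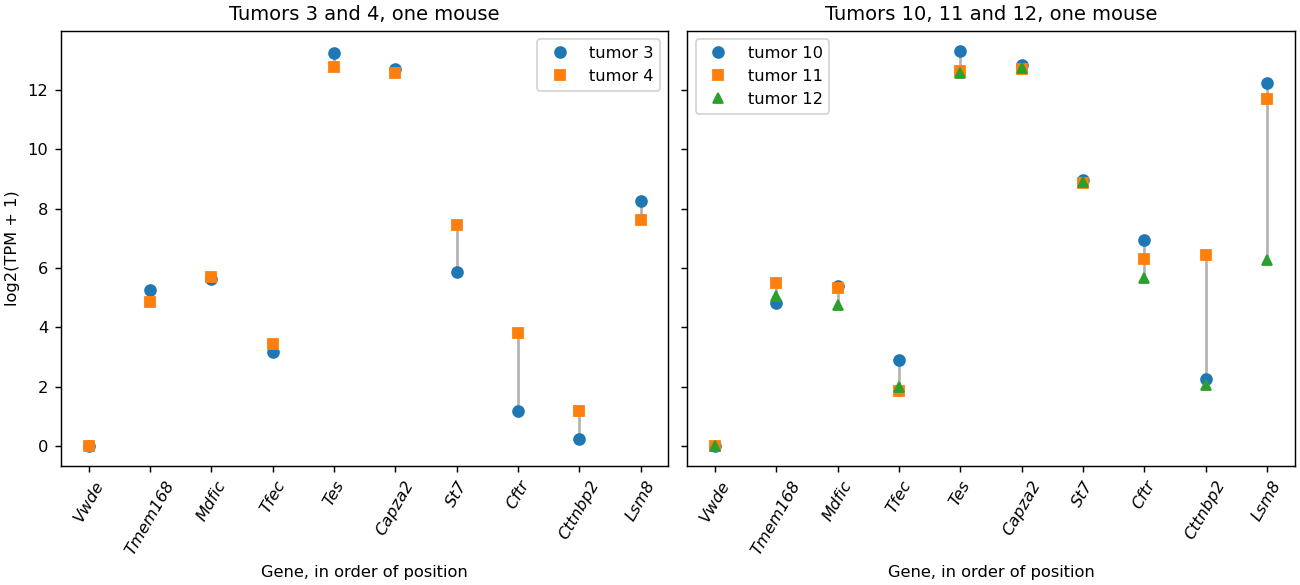
log2(TPM + 1) (vertical axis) of the 10 genes in order of position (horizontal axis) in the 2 tumors of one mouse and the 3 tumors of another, each point 1 tumor. Tumor 12 lies with tumors 10 and 11 at Capza2 and St7 and apart from both at Lsm8, with 76.3 TPM against 4876 and 3302 TPM.

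Genes that work with 8 of these 10, or are related to them, were set beside them as a list of 24 chosen from general knowledge, with none for Vwde and Tmem168. Of their 288 values 26 were raised (9.03%), near the 7.7% of all expressed genes, and 0 were very high. The 10 genes themselves were chosen for their levels in these tumors, so their larger counts are no comparison with this list. Capping protein is a dimer of an alpha and a beta subunit. Capza1, the other common alpha subunit, had between 62.8 and 133 TPM, the beta subunit Capzb had between 190 and 339 TPM, and neither was raised in any tumor. The testis gene Capza3 was listed at 0 throughout. Capza2 TPM was 0.88 and 0.58 times that of Capzb in tumors 2 and 9 and between 11.7 and 38.8 times in the other 10.

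Lsm8 forms a ring with Lsm2 to Lsm7, and Lsm1 takes its place in a cytoplasmic ring. These 7 genes ranged from 13.1 to 227 TPM, and 0 of their 84 values were raised. Lsm8 was 94.1 times the median TPM of Lsm2 to Lsm7 in tumor 7, 65.1 times in tumor 10 and 36.1 times in tumor 11, and between 0.55 and 4.34 times in the others. Of the ring genes, Lsm8 was thus the only one with raised values.

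Testin binds zyxin and proteins of the Ena/VASP family. Zyx had between 4.23 TPM (tumor 2) and 264 TPM (tumor 1) and was raised in 3 tumors, Enah was raised in 2, and Vasp and Evl in 0. Tes had between 21.6 and 109 times the TPM of Zyx in 10 tumors, 1.09 times in tumor 9 and 0.89 times in tumor 2. Zyx was thus lowest in the same tumor as Tes, over a smaller range.

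The relatives of the remaining genes moved in their own ways. Mdfi, the relative of Mdfic, was raised in 7 tumors but not in tumors 6 and 7, where Mdfic was raised. St7l was even at 6.60 to 10.8 TPM, and Cttnbp2nl, at 5.07 to 110 TPM, was raised in no tumor. Mitf, Tfe3 and Tfeb, the other MiT factors, were not raised in any tumor. Of 4 genes of epithelial chloride transport, the channel gene Ano1 was raised in 10 tumors and reached 325 TPM in tumor 3, the cotransporter gene Slc12a2 was raised in tumors 2, 5, 11 and 12, Clca1 reached at most 0.86 TPM, and Slc26a3 was listed at 0.

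**Figure D4:**
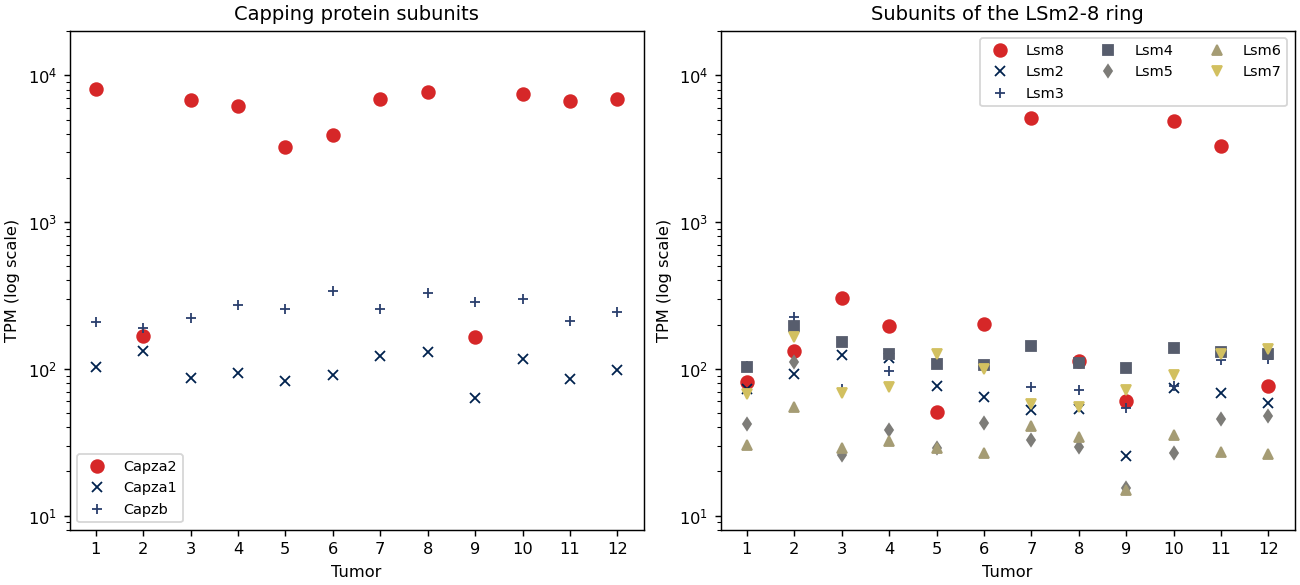
TPM on a log scale (vertical axis) in the 12 tumors (horizontal axis) for Capza2 with its partner genes Capza1 and Capzb, and for Lsm8 with the genes of its ring. Capza2 lies far above Capza1 and Capzb except in tumors 2 and 9, and Lsm8 lies above Lsm2 to Lsm7 by 36.1 times their median or more in tumors 7, 10 and 11.

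Genes with a pattern like that of each of these 10 were sought among all expressed genes over the 9 mice. Among the 50 expressed genes with the highest Spearman rho for each, the window of 13 to 19 Mb held 2 for Mdfic, 1 each for Capza2, Cttnbp2 and Lsm8, and 0 for the other 6, while 30 of the 16802 expressed genes (0.179%) lie in it. By Pearson r of log2(TPM + 1) over the same mice there were 4 for Tes and 3 for Capza2. With 9 values, many genes reach a high rho, and even the gene in place 50 had a rho of 0.92 for Tes and 0.90 for Capza2. Met and the caveolins could count among the 50 and were left out only of the 3 most alike named here.

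The 3 most alike were Fzd2, Klhl26 and Pdia3 for Tes (rho of 0.97 or more), Dynap, Cpe and Mov10 for Capza2 (0.97 or more), and Mlkl, Ranbp10 and Nfat5 for St7 (0.97 or more). They were Ptges3, Pabpc1 and Ddx42 for Lsm8 (0.90 or more), Hras, Galnt18 and Trim36 for Cftr (0.95 or more), and Tmppe, Gm43843 and 6430573F11Rik for Cttnbp2 (0.97 or more). Gm43843 lies inside Cttnbp2 on the same strand. For Tfec they were Ctsk, Atxn2 and Cdh11 (0.98), of which Ctsk encodes an osteoclast and macrophage protease. For Mdfic they were RP24-143K11.1, Cd300lf and Srd5a3 (0.95 or more), and for Tmem168 Arf1, Mars and Ighv2-9 (0.94 or more). Vwde, above 0 in a single mouse, shared a rho of 1 with genes such as Ucp1 that were also detected in that mouse only.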

How the data were processed

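Poly(A) RNA of 12 tumors was prepared with a stranded mRNA kit and sequenced by the authors. They trimmed the reads, aligned them with HISAT2 to the GRCm38 transcriptome and quantified them with StringTie (version 2.1.6 per the labels). The deposited values are TPM, 1 per Ensembl gene and tumor. How transcripts were summed per gene and which strand setting was used are not given in the sources used here. TPM is relative and keeps no read numbers. Sequencing depth is therefore unknown, and no interval for counting error is given. Coordinates came from GENCODE M21, in which 47215 of 47593 genes (99.2%) were placed.

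With Python 3.11.15, pandas 2.3.3 and scipy 1.17.1, log2(TPM + 1) was computed, tumors of a mouse were averaged, and very high, raised and run were defined as in the text. Ratios of low genes are understated by the pseudocount of 1. No p-value was computed, since the genes were chosen on these values and there is 1 condition. Dixon's ratio over mice served only to list values far from the others. The genes and lists were chosen with earlier results of these data known. Named genes were the 10 genes, run ends, the first 3 expressed genes on either side, the 3 most alike and the partner genes. The scripts were tested on simulated data. Alternatives changed the limits, reference, pseudocount, scaling, unit and mice.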

Additional observations from a re-analysis of the deposited data

Results flagged for a closer look

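Vwde in the mouse of tumor 5 lay far from the other 8 mice, at 8.39 on the log2(TPM + 1) scale against 0 in all others. Since the other 8 mice were tied at 0, the gap to the nearest mouse is the whole range of the gene by construction, and with the gene chosen on these values nothing about chance can be read from it.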

How the results depend on the processing

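No paired analysis was possible because the study has a single condition. The counts depend most on the reference and on tumors 2 and 9. With the third-lowest mouse as reference, raised values fell to 19 from 46 and the genes in runs to 0 from 114; Tes and Capza2, low only in tumors 2 and 9, then had 0 raised values each, and St7 had 4 in place of 9. Leaving out each mouse in turn gave 19 to 43 raised values and 0 to 105 genes in runs. Without the mouse of tumor 2 there were 20 raised values and 0 genes in runs, and without the mouse of tumor 9 there were 19 and 0. Very high values numbered 37 with the top 5% of expressed genes. Runs ending only at 10 genes that were not raised, an alternative chosen after seeing the data, held 261 genes. With a pseudocount of 0.1 the mean log2 level of Vwde was -2.02 against 0.93, and the other 129 recomputed mean levels moved by less than 1 SD over mice.

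Neighbours in the window among the 50 most alike genes changed with the measure. By Pearson r there were 1 for Tmem168, 1 for Mdfic, 4 for Tes, 3 for Capza2 and 1 for St7. Without the 2 mice farthest from the median there were 0 for Mdfic and 0 for Capza2, and Vwde gave no value, the remaining mice being equal. Over 12 tumors there were 1 for Tmem168, 0 for Mdfic, 1 for Tes and 0 for Lsm8. The cause of these changes was not tested.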
